A study of Mus musculus with 4 samples.

Results

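The RNA of 38 regulators of neural splicing and RNA binding was examined in 4 libraries of mouse basal radial glia. The genes were chosen by name, from the PTB, Nova, Rbfox, nSR100, Elavl, Celf, Mbnl, STAR, Musashi, SR, Tra2 and Tia families. Each of the 38 symbols matched a single Ensembl identifier among the 45706 genes of the deposited count table, and all 38 were among the 20991 genes with at least 10 counts in total. Within the 38, Ptbp1, Msi1 and Qk were set as progenitor regulators against Ptbp2, Nova1, Nova2, Rbfox1, Rbfox2, Rbfox3, Elavl2, Elavl3, Elavl4 and Srrm4 as neuronal ones.

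All 4 libraries belong to a single group, cells isolated as basal radial glia from the medial neocortex of E18.5 embryos of the strain C57BL/6JOlaHsd, which carried 1 copy of a Tubb-GFP reporter. Cells of this kind are progenitors of the neocortex that have left the ventricular lining and retain a process towards the pial surface. The sample names include DiI, a lipophilic membrane dye, but the labels do not say how dye and reporter served in the isolation, nor whether separate animals gave the 4 libraries. The p-values therefore measure the spread between these libraries, which may be technical, and no comparison between conditions exists.

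Neural differentiation is accompanied by an exchange of RNA-binding proteins. PTBP1 represses many neuronal exons in progenitors and non-neural cells, and its loss allows PTBP2 to be made and, with the Nova, RBFOX, nSR100, ELAVL and CELF proteins, to set the exon choice of neurons. Musashi and Quaking proteins are known from neural progenitors and glia, whereas SR and Tra2 proteins act on exons in nearly every cell.

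The libraries held between 26540656 and 34837657 counts, and the 38 genes took between 0.564% and 0.632% of them. Levels are given as TPM, a count per exonic base scaled to the same total in each library, with the merged exons as the length. Counts of markers above 10 TPM are calls of the edgeR test given below, in which 35.2% of all tested genes lay above 10 TPM. Markers of radial glia summed to between 5318 and 6427 TPM, led by Fabp7 and Mfge8, and 10 of 10 lay above 10 TPM. Markers of neurons, among them Rbfox3, which is also one of the 38 genes, summed to between 9714 and 10824 TPM, led by Tubb3 and Neurod6, and again 10 of 10 lay above 10 TPM. Intermediate progenitor markers (6 of 6 above 10 TPM) summed to between 1246 and 1418 TPM, astrocyte markers (5 of 8) to between 1033 and 1279 TPM and interneuron markers (2 of 8) to between 178 and 325 TPM. Oligodendrocyte markers (2 of 7) summed to between 54.7 and 60.9 TPM, microglial markers (1 of 8) to between 18.1 and 41.6 TPM and endothelial markers to between 4.02 and 7.11 TPM. Erythroid markers (5 of 6) summed to between 2377 and 4203 TPM. No marker on these lists was at 0 in all libraries. The part that any of these cell types had in the levels below was not tested, and in bulk RNA fewer cells of a type and less RNA per cell cannot be told apart.

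Many of the 38 genes are paralogs, so the separation of their reads was examined in the GENCODE M21 transcripts first. Over 38 pairs within families, the aligned coding sequences were between 64.7% and 78.0% identical, with a median of 72.8%, and the longest run of identical bases was between 14 and 44, so that no aligned pair shared a run of over 50 bases. Qk and the Srsf genes were not aligned, and of the SR and Tra2 genes only Tra2b was aligned with Tra2a. The windows of 60 coding bases in which paralogs were most alike are shown for selected pairs of the PTB, Rbfox, Elavl and Musashi families. Bases that differ are in capitals, all are written 5′ to 3′ on the coding strand, and positions are on GRCm38.
Ptbp2 (chr3:119740370-119740429, minus strand): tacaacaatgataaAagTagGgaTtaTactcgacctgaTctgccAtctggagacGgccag
Ptbp1 (chr10:79859862-79859921, plus strand): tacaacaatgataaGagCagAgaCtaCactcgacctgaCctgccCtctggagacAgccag
Rbfox1 (chr16:7292218-7292277, plus strand): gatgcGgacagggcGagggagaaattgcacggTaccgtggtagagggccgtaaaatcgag
Rbfox2 (chr15:77105577-77105636, minus strand): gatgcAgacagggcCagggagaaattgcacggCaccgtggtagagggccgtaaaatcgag
Elavl4 (chr4:110206417-110206476, minus strand): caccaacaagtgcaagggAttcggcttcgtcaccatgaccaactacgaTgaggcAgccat
Elavl3 (chr9:22018588-22018647, minus strand): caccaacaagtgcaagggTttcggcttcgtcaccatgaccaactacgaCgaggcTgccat
Msi2 (chr11:88413968-88480042, minus strand, exons joined across an intron): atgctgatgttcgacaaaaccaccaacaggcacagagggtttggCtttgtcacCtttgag
Msi1 (chr5:115438725-115440507, plus strand, exons joined across an intron): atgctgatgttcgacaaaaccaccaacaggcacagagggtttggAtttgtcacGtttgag
Even in these windows the Ptbp2 and Ptbp1 sequences matched at 52 of 60 bases, those of Rbfox1 and Rbfox2 and of Elavl4 and Elavl3 at 57, and those of Msi2 and Msi1 at 58. The Musashi pair held the longest shared run, of 44 bases.

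Runs of 50 bases shared with other genes of the annotation were found elsewhere. They made up 10.04% of such runs in Srsf3 (mostly Gm12355), 7.98% in Tra2b (mostly Gm10254), 4.75% in Ptbp1 (Gm4900) and 1.19% in Khdrbs1, and less than 1% in each of the other members, 20 of which shared none. Gm12355 and Gm10254 had 301 and 118 counts over the 4 libraries. Strand was not stated for the counts, and 5 members shared over 5% of their exonic bases with a gene on the opposite strand: Nova2 (31.7%), Srsf2 (25.3%), Ptbp1 (20.7%), Celf5 (8.14%) and Celf2 (7.58%). The partner of Nova2 (Gm26821) and that of Celf2 (Gm26565) had no count, the partner of Celf5 (Gm16105) averaged 0.189 TPM, the partners of Srsf2 (Mettl23 and Mfsd11) averaged 63.6 and 22.7 TPM, and of the 3 partners of Ptbp1 the highest, Plppr3, averaged 110.6 TPM. The levels of these genes are uncertain to that extent.

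Nearly all of the regulators, progenitor and neuronal alike, were expressed. In edgeR's quasi-likelihood F test, adjusted by Benjamini-Hochberg over all tested genes, 37 of the 38 lay above 1 TPM, against 65.9% of all tested genes, and Mbnl3 was not called in either direction (12.1% of tested genes lay below 1 TPM). Against 10 TPM, 32 of the 38 lay above, where 35.2% of tested genes did. Below 10 TPM were 5 members, Mbnl2, Nova1, Srrm3, Celf6 and Mbnl3, where 58.0% of tested genes were, and Msi2 was not called (edgeR adjusted p = 0.341). The median member averaged 43.1 TPM, against 4.79 TPM for all tested genes and 8.997 TPM for the protein-coding ones. Their levels varied between libraries with a median coefficient of variation of 8.62%, against 19.8% for all tested genes, which include many of lower level. Ranked among tested genes of similar level, the members' coefficients of variation ran from percentile 4.61 (Rbfox2) to 97.1 (Srsf2).

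**Figure D1:**
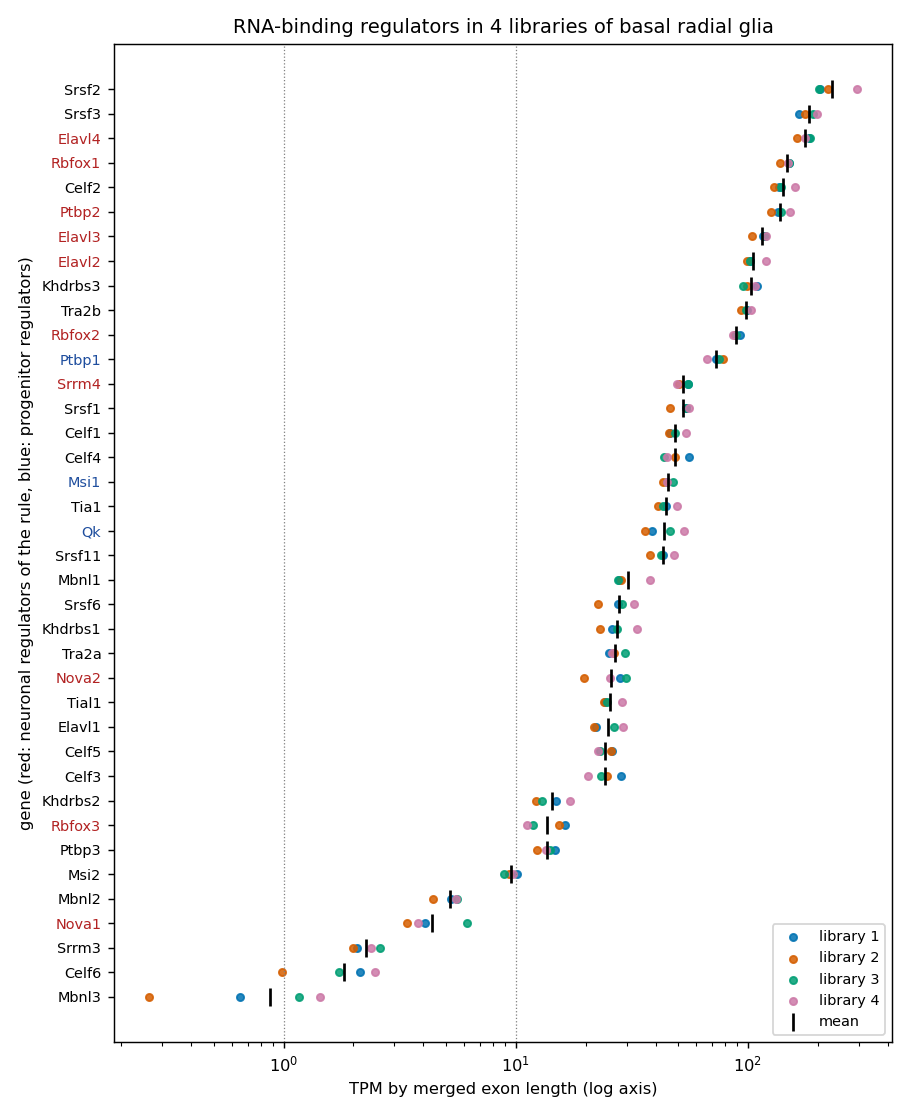
Level of each of the 38 genes in each of the 4 libraries (points, TPM by merged exon length, log axis) with the mean (bar), ordered by mean level; gene names in red are the neuronal and in blue the progenitor regulators, and dotted lines mark 1 and 10 TPM. The order runs from Srsf2 at 230.7 TPM to Mbnl3 at 0.878 TPM, and Ptbp2 stands above Ptbp1, which turns by whole gene span.

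By merged exons, the order of the levels ran from Srsf2, Srsf3, Elavl4, Rbfox1, Celf2, Ptbp2, Elavl3, Elavl2 and Khdrbs3, the 9 members that averaged over 100 TPM, to Nova1, Srrm3, Celf6 and Mbnl3. By whole gene span, Srsf2 and Srsf3 kept ranks 1 and 2, but Elavl4 ranked 17 and Rbfox1 30. With the longest transcript, Celf2 ranked 1 (312.2 TPM), above Srsf3 (272.2 TPM) and Srsf2 (272.0 TPM). Tra2b (167.2 TPM) and Tia1 (118.1 TPM) then also passed 100 TPM and Khdrbs3 (99.6 TPM) did not. Of the 37 neighbouring pairs in the order by merged exons, 14 differed in the same direction in all 4 libraries by more than the standard deviation (SD) of the difference, and the other 23 did not. Elavl4 was separated in this way from Rbfox1, Ptbp2 from Elavl3, Rbfox2 from Ptbp1 and Ptbp1 from Srrm4. The difference of Rbfox2 to Ptbp1 turned with the longest transcript (-0.06 on the log2 scale) and by whole gene span (-3.24), and that of Ptbp1 to Srrm4 turned without a length. That of Ptbp2 to Elavl3 turned by whole gene span, with means of 46.0 and 50.9 TPM. Neighbours from Celf1 through Celf4, Msi1, Tia1 and Qk to Srsf11, between 48.6 and 42.9 TPM, were not separated.

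Ptbp2, the neuronal polypyrimidine tract binding protein, was the most abundant PTB paralog by merged exons, though not by whole gene span. It had 135.2, 125.6, 138.8 and 152.5 TPM in libraries 1 to 4. Ptbp1, its progenitor counterpart, had 72.8, 78.0, 75.3 and 66.6 TPM. Every Ptbp2 value lay above every Ptbp1 value, and library 4, which had the highest Ptbp2, had the lowest Ptbp1. Over 41 pairs of members compared within libraries on log2((TPM + 1)/(TPM + 1)) with limma, the first gene was higher in 21, lower in 18 and not called in 2, where 94.6% of all comparisons of tested genes with the same second genes passed the test. By whole gene span, the basis of the deposited TPM, the first gene was higher in 11 pairs and lower in 27. The ratio moved by over 1.5 times in 30 of the 41 pairs by whole gene span, in 25 without a length and in 13 with the longest transcript. Ratios to the same second gene share its values, so these p-values are too small by an unknown amount, and an exact sign-flip test on 4 libraries cannot go below a two-sided p of 0.125. For Ptbp2 over Ptbp1 the log2 ratio was 0.90 ± 0.21 (SD, n = 4, limma adjusted p = 7.76e-05), positive in 4 of 4 libraries, but -0.79 when counts were divided by the whole gene span, introns included. Ptbp3, best known from blood cells, stood at 13.7 ± 1.02 TPM, with a log2 ratio to Ptbp1 of -2.34 ± 0.16 (limma adjusted p = 1.003e-07). Ptbp2 made up 61.3% ± 3.09 of the summed PTB level, Ptbp1 32.6% ± 3.06 and Ptbp3 6.08% ± 0.422 (SD, n = 4).

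Of the Nova proteins, KH-domain factors that control synaptic exons, Nova2 was the main form. Nova2, the paralog known for the neocortex, had 28.0, 19.7, 29.8 and 25.6 TPM in libraries 1 to 4. Nova1, known for the hindbrain and spinal cord, had 4.06, 3.41, 6.19 and 3.77 TPM. The ranges did not overlap; library 3 was highest and library 2 lowest for both genes. The log2 ratio of Nova1 to Nova2 was -2.33 ± 0.20 (SD, n = 4, limma adjusted p = 1.068e-36). All ratios to Nova2 share its values, so this p-value is too small by an unknown amount. Nova2 took 85.6% ± 2.10 of the family sum. Both lay below Ptbp1, Nova2 by a log2 ratio of -1.48 ± 0.30 (limma adjusted p = 1.005e-05) and Nova1 by -3.82 ± 0.31 (limma adjusted p = 3.009e-08).

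By merged exons the Rbfox family was led by Rbfox1, with Rbfox2 next and Rbfox3 far lower, an order in which Rbfox2 came first by whole gene span. Rbfox1, a regulator of neuronal and muscle exons, had 150.3, 138.1, 149.7 and 148.5 TPM in libraries 1 to 4. Rbfox2, the most widely expressed of the family, had 92.0, 88.4, 89.2 and 86.6 TPM, and had the lowest coefficient of variation of all members, 2.51%. Rbfox3, the antigen NeuN of mature neurons, had 16.2, 15.4, 11.9 and 11.2 TPM. The 3 ranges did not overlap, and Rbfox3 was higher in libraries 1 and 2 than in libraries 3 and 4. The log2 ratio of Rbfox1 to Rbfox2 was 0.71 ± 0.06 (SD, n = 4, limma adjusted p = 5.829e-05), but it turned to -2.10 by whole gene span and to -0.17 without a length. That of Rbfox3 to Rbfox2 was -2.63 ± 0.22 (limma adjusted p = 4.212e-07) and negative by every length. Rbfox1 spans 1526172 bases of chromosome 16 for 4400 exonic bases.

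Srrm4, or nSR100, the activator of neuronal microexons, was present in each library, and its paralog Srrm3 was low. Srrm4 had 55.3, 50.3, 55.2 and 49.5 TPM in libraries 1 to 4. Srrm3 had 2.08, 2.00, 2.60 and 2.37 TPM. The log2 ratio of Srrm4 to Srrm3 was 4.04 ± 0.13 (SD, n = 4, limma adjusted p = 8.221e-10), and Srrm4 held 95.9% ± 0.479 of their sum. Rest, whose transcript is a known target of nSR100 and which represses neuronal genes, averaged 5.32 ± 0.846 TPM.

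**Figure D2:**
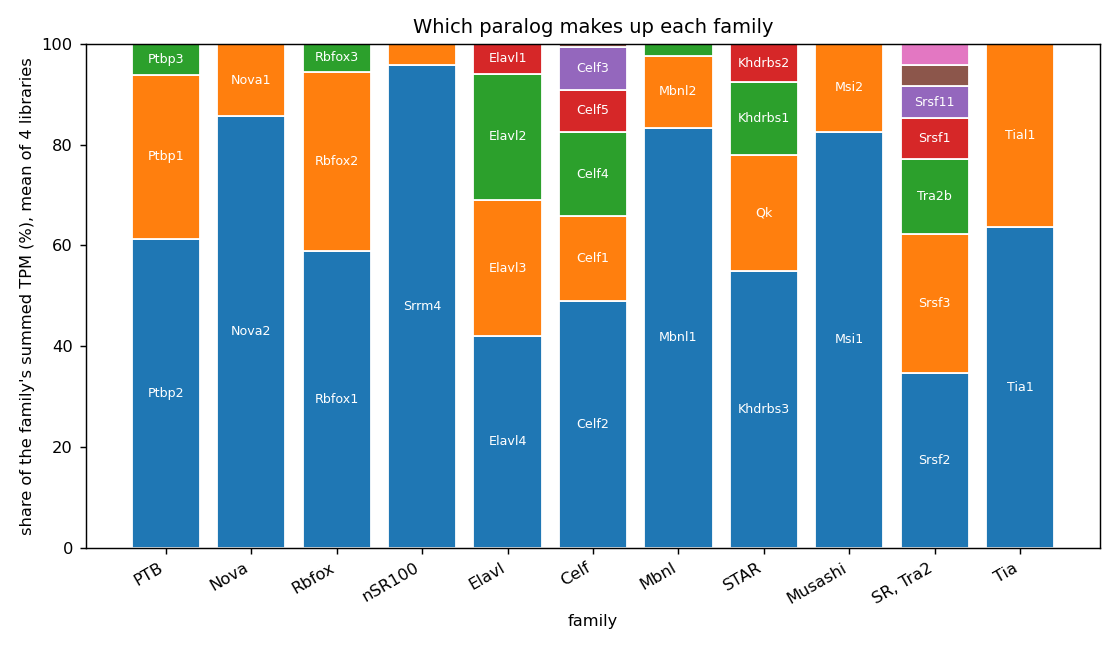
Share of each paralog in its family's summed TPM by merged exon length (stacked bars, mean of 4 libraries, y axis in %); names are written inside segments above 5%, and the unlabelled segments are Srrm3, Celf6, Mbnl3, Srsf6 and Tra2a. A single paralog takes over 80% of the Nova, nSR100, Mbnl and Musashi sums, whereas Ptbp2 takes 61.3% of the PTB sum.

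The neuronal Hu proteins, which bind AU-rich elements and stabilise transcripts, outweighed the ubiquitous Elavl1. Elavl4 (HuD) had 182.8, 162.8, 184.8 and 176.3 TPM in libraries 1 to 4. Elavl3 (HuC) had 116.2, 103.9, 118.6 and 119.1 TPM. Elavl2 (HuB) had 102.0, 99.4, 101.9 and 119.1 TPM. Elavl1 (HuR), used by all cell types, had 22.1, 21.7, 26.6 and 29.0 TPM and was below the other 3 genes in each library. Library 2 was lowest for all 4 genes. The log2 ratios to Elavl1 were 2.79 ± 0.18 for Elavl4, 2.17 ± 0.14 for Elavl3 and 2.05 ± 0.12 for Elavl2 (SD, n = 4, limma adjusted p between 2.215e-10 and 3.99e-09). By whole gene span that of Elavl4 came to 0.01 and that of Elavl2 turned to -0.12. Together Elavl2, Elavl3 and Elavl4 took 94.1% ± 0.585 of the Elavl sum, and 93.0% with the longest transcript as length.

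Among the Celf proteins, which bind GU-rich sequence and often oppose the Mbnl proteins on the same exons, Celf2 was highest by merged exons, though not by whole gene span. Celf2 had 136.6, 129.0, 139.1 and 159.8 TPM in libraries 1 to 4, and took 48.9% ± 2.84 of the family sum. Celf1, the broadly expressed paralog, averaged 48.6 ± 3.82 TPM and the brain-enriched Celf4 averaged 48.3 ± 5.42 TPM. The log2 ratio of Celf2 to Celf1 was 1.52 ± 0.04 (SD, n = 4, limma adjusted p = 1.143e-06), but -0.42 by whole gene span. Celf4 and Celf1 did not pass the test (log2 ratio -0.01 ± 0.24, limma adjusted p = 0.913), with 2 of 4 libraries in each direction. With the longest transcript Celf4 was called higher than Celf1 (0.97, limma adjusted p = 8.694e-05) and by whole gene span lower (-1.55, limma adjusted p = 1.441e-05). Celf5 and Celf3 averaged 24.3 and 24.2 TPM, below Celf1 in 4 of 4 libraries (log2 ratios -0.97 ± 0.20 and -0.98 ± 0.29, limma adjusted p = 7.446e-05 and 0.000213), a direction that turned by whole gene span. Celf6 was low, with 2.13, 0.981, 1.72 and 2.48 TPM from 69, 40, 60 and 74 counts. It lay above 1 TPM in edgeR's test (adjusted p = 0.005) but not in the Wald test of DESeq2.

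The Mbnl proteins, which promote the exon choices of differentiated tissue and are sequestered in myotonic dystrophy, were represented mainly by Mbnl1. Mbnl1 had 27.8, 28.4, 27.5 and 37.8 TPM in libraries 1 to 4, high in library 4 only. Mbnl2, the paralog known for the adult brain, had 5.24, 4.39, 5.61 and 5.54 TPM. Mbnl3 had 0.652, 0.264, 1.17 and 1.43 TPM, from 51, 26, 98 and 103 counts. Mbnl3 was the most variable member, with library 2 lowest, and could not be placed above or below 1 TPM (edgeR adjusted p = 0.601). The log2 ratios to Mbnl1 were -2.33 ± 0.21 for Mbnl2 and -4.09 ± 0.34 for Mbnl3 (SD, n = 4, limma adjusted p = 5.726e-09 and 7.512e-11).

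The Musashi proteins repress translation in neural stem cells, with Numb among the known targets of Msi1. Msi1 had 45.0, 43.1, 47.7 and 45.0 TPM in libraries 1 to 4, and was among the steadiest members. Msi2 had 10.1, 9.35, 8.89 and 9.72 TPM. The ranges lay apart, and the log2 ratio of Msi2 to Msi1 was -2.14 ± 0.11 (SD, n = 4, limma adjusted p = 2.232e-07) and negative by every length. Numb averaged 14.8 TPM, with libraries between 11.96 and 17.3 TPM.

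Of the STAR proteins, KH-domain factors that include Quaking and the Sam68 group, Khdrbs3 was highest by merged exons, though not by whole gene span. Khdrbs3, which controls neurexin splicing, averaged 102.8 ± 6.55 TPM, Khdrbs1 (Sam68) 27.4 ± 4.29 TPM and Khdrbs2, a neuronal paralog, 14.3 ± 2.21 TPM. The log2 ratio to Khdrbs1 was 1.88 ± 0.20 for Khdrbs3 (SD, n = 4, limma adjusted p = 1.591e-08), but -0.91 by whole gene span, and -0.89 ± 0.11 for Khdrbs2 (limma adjusted p = 2.454e-05). Without a length the ratio of Khdrbs2 was -0.25 and did not pass the test (limma adjusted p = 0.084), and by whole gene span it was -2.76. Qk, which acts in glial progenitors and in myelination, had 38.5, 36.0, 46.0 and 53.0 TPM in libraries 1 to 4. Qk was higher in libraries 3 and 4 than in libraries 1 and 2, and its coefficient of variation of 17.8% was above the member median.

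The general exon factors among the members were led by Srsf2 and Srsf3. Srsf2, an SR protein that binds exonic enhancers, had 204.7, 220.6, 202.3 and 295.1 TPM in libraries 1 to 4, highest in library 4. Srsf3, the smallest SR protein, had 165.3, 176.3, 190.8 and 197.8 TPM. Srsf1 averaged 52.6 ± 4.33 TPM, Srsf11 42.9 ± 4.16 TPM and Srsf6 27.8 ± 4.04 TPM. The log2 ratios to Srsf1 were 2.10 ± 0.25 for Srsf2, 1.78 ± 0.14 for Srsf3 and -0.90 ± 0.10 for Srsf6 (SD, n = 4, limma adjusted p between 2.673e-07 and 2.107e-05). That of Srsf11, -0.29 ± 0.06 (limma adjusted p = 0.0145), turned to 1.04 with the longest transcript and to 0.27 without a length, and missed the threshold without library 1 (limma adjusted p = 0.0613) and without library 3 (0.0733).

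Tra2b, which activates exons together with SR proteins and is needed for brain development, had 98.7, 93.8, 97.8 and 103.2 TPM in libraries 1 to 4. Tra2a had 25.3, 26.5, 29.5 and 26.0 TPM, below Tra2b in each library (log2 ratio of Tra2b to Tra2a 1.84 ± 0.12, SD, n = 4, limma adjusted p = 1.821e-07). Tia1 and Tial1, which bind U-rich sequence near splice donors and enter stress granules, averaged 44.4 ± 3.67 and 25.4 ± 2.194 TPM. The log2 ratio of Tial1 to Tia1 was -0.78 ± 0.04 (limma adjusted p = 4.963e-05).

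**Figure D3:**
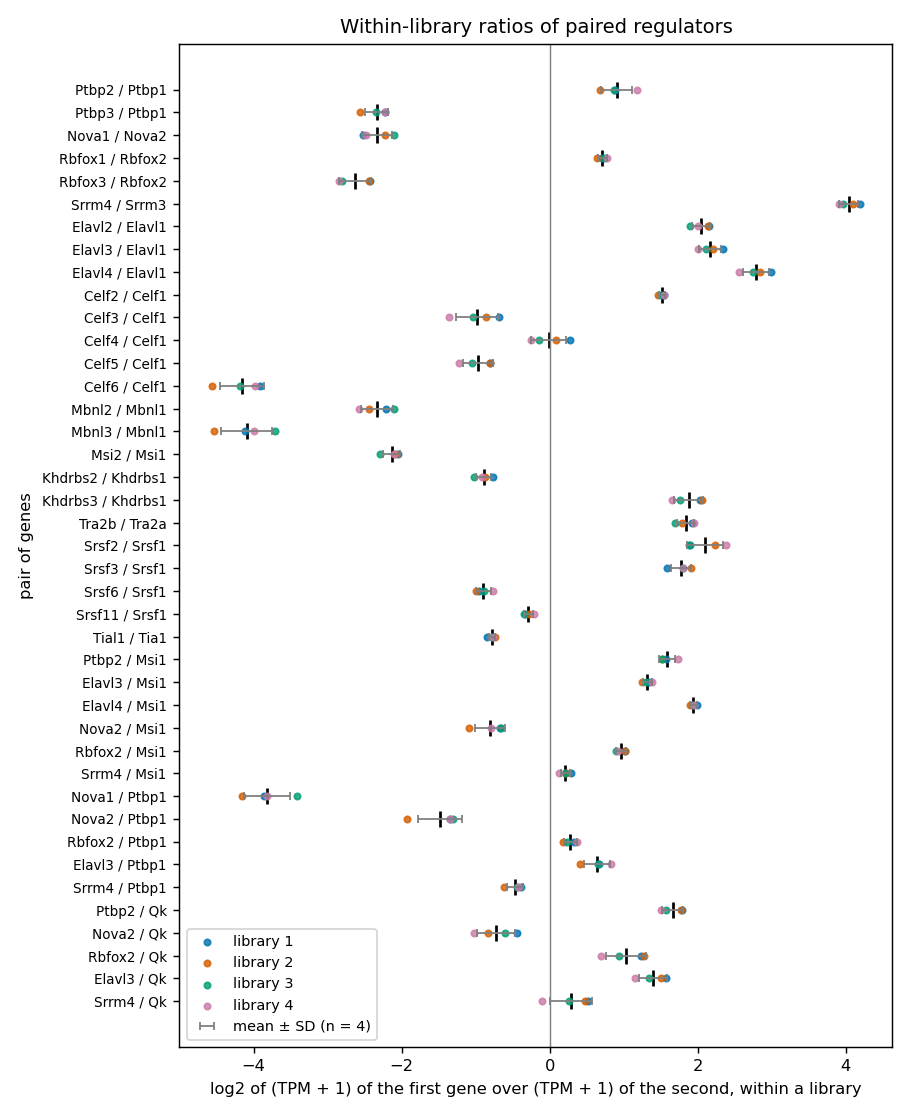
Within-library log2 ratio of (TPM + 1) of the first to the second gene for all 41 pairs (points by library, bar and whiskers: mean ± SD, n = 4; grey line: equal levels). Srrm4 over Srrm3 is the highest mean ratio at 4.04 and Celf6 over Celf1 the lowest at -4.16, whereas the libraries of Celf4 over Celf1 and of Srrm4 over Qk lie on both sides of 0.

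Set against the progenitor regulators in chosen pairs, the neuronal ones were higher in some and lower in others. Rbfox1, Rbfox3 and Elavl2 were not paired with a progenitor regulator. Ptbp2 exceeded Msi1 by a log2 ratio of 1.59 ± 0.10 and Qk by 1.66 ± 0.14, and Elavl3 exceeded Msi1 by 1.32 ± 0.06 and Qk by 1.39 ± 0.19 (SD, n = 4, limma adjusted p between 2.808e-13 and 1.807e-06); these 4 kept their direction by every length. Elavl4 exceeded Msi1 by 1.94 ± 0.04 (limma adjusted p = 2.1e-07), Elavl3 exceeded Ptbp1 by 0.64 ± 0.17 (limma adjusted p = 0.000459), and Rbfox2 exceeded Msi1 by 0.96 ± 0.06 and Qk by 1.04 ± 0.27 (limma adjusted p = 1.123e-05 and 2.023e-07); all 4 turned by whole gene span, to -0.61, -0.64, -1.54 and -0.65. Without a length, Rbfox2 over Qk was 0.25 and did not pass the test (limma adjusted p = 0.131). Nova2 was below Msi1 by a log2 ratio of -0.80 ± 0.20 and below Qk by -0.73 ± 0.25 (limma adjusted p = 0.000176 and 0.000103), the second turning to 0.05 by whole gene span.

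By merged exons, Srrm4 lay below Ptbp1 (log2 ratio -0.47 ± 0.10, SD, n = 4, limma adjusted p = 0.00147), a ratio of -0.83 with the longest transcript and -3.31 by whole gene span that turned to 0.39 without a length. It was above Msi1 by 0.21 ± 0.06 (limma adjusted p = 0.0279), turning to -0.45 with the longest transcript and to -1.62 by whole gene span. That call was lost when library 1, 2 or 3 was left out, with limma adjusted p up to 0.121. Srrm4 and Qk did not pass the test by merged exons (0.29 ± 0.28, limma adjusted p = 0.106). Srrm4 was called higher without library 4 (0.42, limma adjusted p = 0.0147) and with a pseudocount of 5 TPM (0.26, limma adjusted p = 0.047), and lower by whole gene span (-0.72, limma adjusted p = 0.000126) and without a length (-0.42, limma adjusted p = 0.0102). Rbfox2 exceeded Ptbp1 by 0.28 ± 0.09 (limma adjusted p = 0.0174), which turned to -0.06 with the longest transcript and to -3.24 by whole gene span, and missed the threshold without library 1 (limma adjusted p = 0.0761) and without library 3 (0.0548).

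The median log2(TPM + 1) over the 10 neuronal regulators was 6.61, 6.57, 6.59 and 6.68 in libraries 1 to 4, and over the 3 progenitor regulators 5.52, 5.46, 5.60 and 5.75. The neuronal median was higher in each library, by 1.09, 1.10, 0.99 and 0.93 (mean 1.03 ± 0.08, SD, n = 4), a description of chosen genes that was given no test. With the mean over genes in place of the median the difference was 0.13, and with the whole gene span as length the median difference turned to -1.22. The median over all tested genes was 2.53 ± 0.05 on the same scale. The neuronal side was spread widely, with 5 of its 10 genes above 100 TPM and Nova1 below 10 TPM.

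The levels moved with the length by which counts were divided. The median span of the members was 66804 bases, against 24480 for 15363 other tested protein-coding genes, and their merged exons had a median of 8019.5 bases, against 4345. The merged exons exceeded the longest transcript by a median factor of 1.63, against 1.22, with 8.5 annotated transcripts per gene against 5. With the longest transcript as length, 28 of the 38 members had a higher TPM. In the authors' deposited table of TPM, 33 of the 36 members listed followed the whole gene span to within 0.01 on the log2 scale, apart from a factor common to the genes. The exceptions were Rbfox1, Qk and Khdrbs3. By that factor the deposited values were higher than those recomputed by span, with Ptbp1 at 117.8 against 80.1 and Ptbp2 at 67.7 against 46.0. In the authors' deposited table Ptbp2 is listed at a mean of 67.7 and Ptbp1 at 117.8, Rbfox1 at 3.76 and Rbfox2 at 11.2, and Elavl4 at 22.6 and Elavl1 at 22.6, where Srsf3 and Celf6 are not listed.

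**Figure D4:**
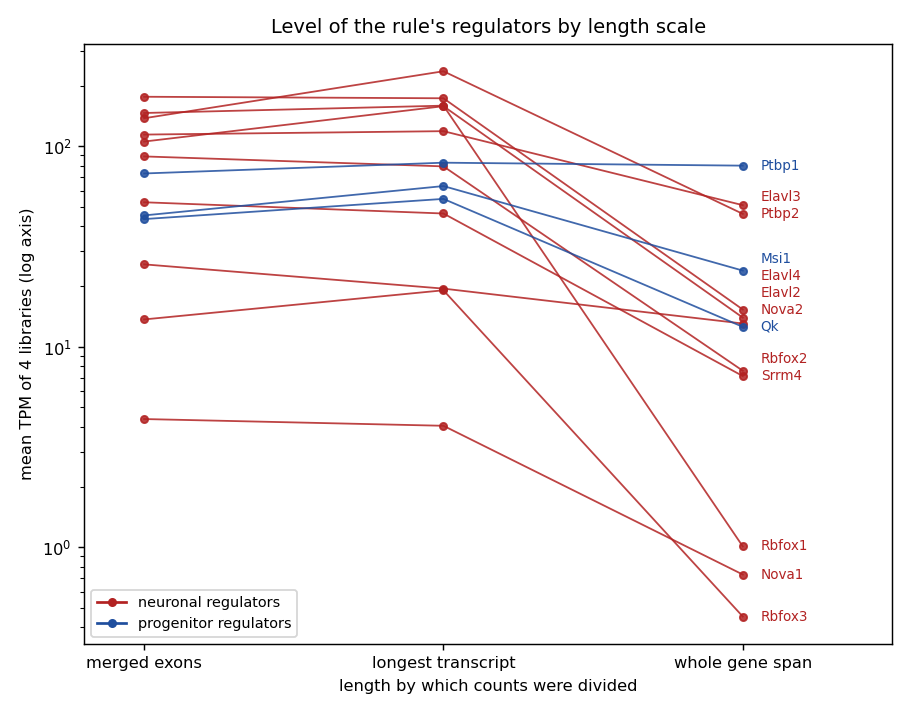
Mean TPM (4 libraries, log axis) of the 10 neuronal (red) and 3 progenitor (blue) regulators when counts are divided by the merged exons, the longest transcript or the whole gene span. Rbfox1 stands at 146.6 TPM by merged exons and at 1.01 TPM by gene span, whereas Ptbp1 stands at 73.2 and 80.1 TPM and lies above Ptbp2 by gene span.

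The libraries differed slightly and in common over many members. Library 2 was the lowest for 25 of the 38, where it was the lowest for 29.5% of tested genes, and library 4 was the highest for 20, where it was the highest for 31.7%. The median deviation of the members from their own mean on log2(TPM + 1) was -0.10 in library 2 and 0.08 in library 4, against -0.02 and 0.02 for the 15405 tested genes averaging at least 1 TPM. With TMM library sizes, a scaling chosen after seeing the data, the counts were 21 (24.8% of tested genes) and 19 (28.8%). The erythroid markers summed to 4203 TPM in library 2, against 2377 to 2683 TPM in the other 3, and that library was the deepest; their part in the pattern was not tested.

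**Figure D5:**
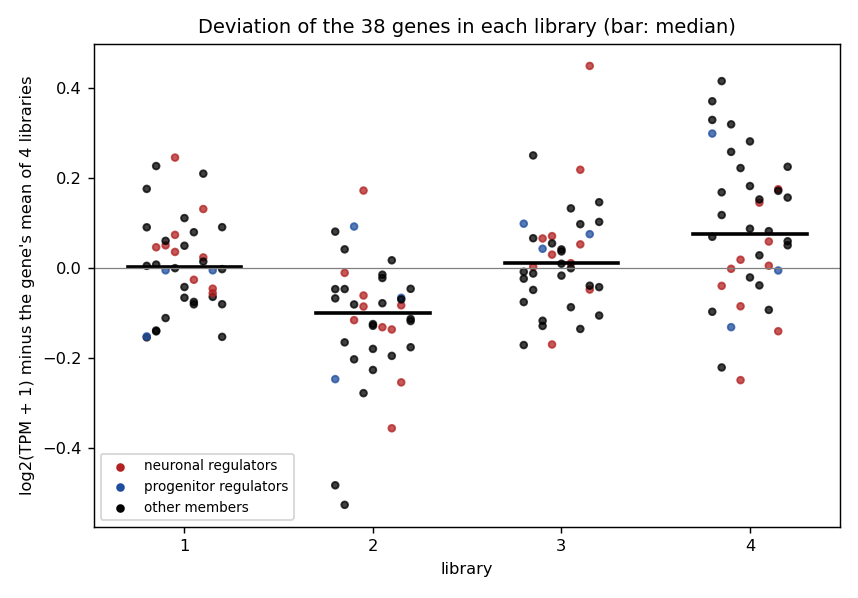
Deviation of each of the 38 genes from its own mean of 4 libraries, on log2(TPM + 1) (points; red neuronal, blue progenitor, black other members; bar: median of the 38). The median is lowest in library 2 (-0.10) and highest in library 4 (0.08).

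Around these members, 78 genes in 6 further lists were examined. Among them 5, Rest, Numb, Dlg4, Dab1 and Agrn, were listed as regulators or known targets. In edgeR's test 71 of the 78 lay above 1 TPM, against 65.9% of all tested genes, and 60 above 10 TPM, against 35.2%. The median of the 78 was 46.0 TPM, against 43.1 TPM for the members, but the lists differed. List medians were 76.2 TPM for core spliceosome, 74.9 TPM for further SR and 69.0 TPM for hnRNP and PCBP genes. They were 20.4 TPM for other neural RNA-binding proteins, 14.8 TPM for the 5 and 0.266 TPM for factors of other tissues. All 13 core spliceosome genes lay above 10 TPM (Snrpb 281.2, Sf3b1 165.2, Sf3a1 135.1 and, lowest, Snrnp70 16.5 TPM), as did 24 of 26 hnRNP and PCBP genes (Hnrnpk 1153, Hnrnpa2b1 970.7, Hnrnpa1 712.7 and, lowest, Hnrnpll 7.66 TPM). Of 10 further SR and related genes 9 did (Srsf7 754.5, Srsf5 173.9, Srrm1 105.6 and, lowest, Srsf4 2.54 TPM). Of 15 other RNA-binding proteins of neural tissue 10 did (Stau1 140.6, Ewsr1 127.3 and, lowest, Cpeb3 1.23 TPM).

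RNA-binding factors known from other tissues, among them regulators of splicing, translation and RNA editing, were mostly low. Rbm24, known from muscle and heart, averaged 15.0 TPM and Rbm20, known from heart, 7.55 TPM, and Rbm46 averaged 1.49 TPM. Rbm47, Dazl and Boll averaged 0.266, 0.404 and 0.190 TPM and were called below 1 TPM. Dazl was at the threshold (edgeR adjusted p = 0.04997), with 0.907 TPM in library 1. Of the further lists, 2 genes were called below 1 TPM without library 2, 3 or 4, and 0 in the Wald test of DESeq2. The epithelial Esrp1 had 7 counts in all libraries together, and Esrp2 and A1cf had none. Of the known Nova targets, Dab1 averaged 82.7 ± 3.93 TPM and Agrn 27.7 ± 0.961 TPM, and Dlg4, a known target of PTB proteins, 7.35 ± 0.398 TPM. These are gene totals, which do not show which exons were used.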

How the data were processed

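RNA-seq of 4 libraries was analysed from the deposited counts, whole numbers of reads per Ensembl gene that the authors left unnormalised. Per the labels' protocols, cDNA was primed with tailed poly-dT, template-switched, amplified and sheared. Per the submitters' processing notes, bcl2fastq 2.19.1, STAR 2.5.2b and GRCm38 were used; for the counter, strand setting and annotation, the sources used here give nothing. The authors also deposited TPM, whose length basis was the whole gene span for 9050 of 9569 genes checked (94.6%, within 0.01 log2 apart from a factor common to the genes).

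TPM was recomputed with merged exon lengths of GENCODE M21, which matched 45143 of 45706 identifiers (at least 99.87% of counts). Genes with at least 10 counts (20991) were tested against 1 and 10 TPM by a quasi-likelihood F test on 1 group (edgeR 4.0.16, R 4.3.3; offset: log expected count). Its intercept-only F test was written out from edgeR's fit and tested on simulated data. Pairs were tested with limma 3.58.1 on log2 ratios with a pseudocount of 1 TPM, for every tested gene against the 13 second genes. Tests were two-sided, Benjamini-Hochberg adjusted over all tested genes, threshold 0.05. Coding sequences were aligned with Biopython 1.88. Alternatives were DESeq2 1.42.0, TMM, no filter, other lengths, pseudocounts of 0.1 and 5 TPM, and leaving out each library. Named were all 38 members, listed pairs, the 3 highest and the lowest of each further list, all targets and factors of other tissues, and marker sums with their 2 highest genes; overlapping genes were named as partners, and 1 gene that this rule names is not reported here. Members and lists were chosen with earlier results of these data known.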

Additional observations from a re-analysis of the deposited data

Results flagged for a closer look

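The level of 39 items, the 38 genes and the median difference between neuronal and progenitor regulators, was examined for a library apart from the other 3, by the gap of the extreme value to its neighbour over the whole range. For 4 genes this exceeded Dixon's 95% critical value for 4 samples, and chance flags about 1 in 20 groups. For Mbnl1 the ratio was 0.908, with 37.8 TPM in library 4 and between 27.5 and 28.4 TPM in the others. For Tial1 it was 0.883, with 28.7 TPM in library 4 and between 24.1 and 24.6 TPM in the others. For Elavl2 it was 0.867, with 119.1 TPM in library 4 and between 99.4 and 102.0 TPM in the others. For Rbfox1 it was 0.852, with 138.1 TPM in library 2 and between 148.5 and 150.3 TPM in the others.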

How the results depend on the processing

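No paired analysis was possible because all libraries belong to a single group. The length used for TPM changed most, and its causes beyond the change of length were not tested. By whole gene span, members below 1 TPM numbered 7, above 10 TPM 21 and below 10 TPM 16, genes of the further lists below 1 TPM 7, and pairs with the first gene higher 11 and lower 27. The log2 level against 1 TPM then turned for Nova1 (-0.45), Rbfox3 (-1.15), Srrm3 (-0.97), Celf6 (-0.90), Mbnl2 (-0.070), Khdrbs2 (-0.47) and Msi2 (-0.68), and that against 10 TPM for Ptbp3 (-1.67), Rbfox1 (-3.31), Rbfox2 (-0.40), Rbfox3 (-4.47), Srrm4 (-0.49), Celf2 (-0.15), Celf4 (-1.48), Mbnl1 (-0.21), Khdrbs2 (-3.79) and Khdrbs3 (-0.94). Pair ratios turned for Ptbp2 over Ptbp1 (-0.79), Rbfox1 over Rbfox2 (-2.10), Elavl2 over Elavl1 (-0.12), Celf2, Celf3 and Celf5 over Celf1 (-0.42, 0.82 and 0.38), Khdrbs3 over Khdrbs1 (-0.91), Elavl4, Rbfox2 and Srrm4 over Msi1 (-0.61, -1.54 and -1.62), Rbfox2 and Elavl3 over Ptbp1 (-3.24 and -0.64), and Nova2, Rbfox2 and Srrm4 over Qk (0.051, -0.65 and -0.72). With the longest transcript, Mbnl3 against 1 TPM (0.31), Msi2 against 10 TPM (0.22), Celf4 over Celf1 (0.97), Srsf11 over Srsf1 (1.04), Srrm4 over Msi1 (-0.45), Rbfox2 over Ptbp1 (-0.058) and Srrm4 over Qk (-0.22) turned. Without a length, Rbfox1 over Rbfox2 (-0.17), Celf4 over Celf1 (0.00998), Srsf11 over Srsf1 (0.27), Srrm4 over Ptbp1 (0.39) and Srrm4 over Qk (-0.42) did. Calls were lost without a turn for Khdrbs2 over Khdrbs1 (-0.25) and Rbfox2 over Qk (0.25) without a length and for Elavl4 over Elavl1 (0.00509) by span, and gained for Celf4 over Celf1 (-1.55) by span. The neuronal minus progenitor difference was 0.59 with the longest transcript, -1.22 by span, 0.91 with Elavl1, 0.13 as a mean and 1.15 without Rbfox2. With the DESeq2 Wald test, members below 10 TPM numbered 3, and genes of the further lists 5 below 10 TPM and 0 below 1 TPM, against 14 and 3 in edgeR's test; the cause was not tested. That test also did not call Srrm3 and Celf6 against 1 TPM, nor Ptbp3, Nova1, Rbfox3, Mbnl2 and Khdrbs2 against 10 TPM. TMM and DESeq2 size factors changed no member's call at either level.

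With each library left out in turn, members above 10 TPM stayed at 32 and below 10 TPM at 5, further genes above 1 TPM numbered 70 to 71 and below 1 TPM 2 to 3, pairs with the first gene higher 19 to 22 and lower 17 to 18, and the neuronal minus progenitor difference was 0.9999 to 1.06. Mbnl3 against 1 TPM ranged from -0.53 to 0.11, turning without library 2, and Celf4 over Celf1 from -0.11 to 0.069, turning without library 3 (0.032) or library 4. Mbnl3 had only 26 to 103 counts per library.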
